A study of Rattus norvegicus with 16 samples.

Results

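Serpins and Spink proteins are protease inhibitors. Most serpins hold a protease in a one-way reaction in which the serpin changes shape and the complex is cleared, while some members of the fold, such as the collagen chaperone Hsp47, inhibit nothing. Spink proteins carry Kazal domains, which block trypsin-like proteases by filling the active site. In the epididymis, inhibitors secreted into the lumen meet sperm proteins and the proteases that process them. The genes described here are those whose platform symbol begins with Serpin, a clade letter from a to i and a digit, or with Spink and a digit. They number 38 genes, 33 Serpin and 5 Spink, of 14218 named genes on the array. Where a gene had several probe sets, the brightest on average across the 16 arrays stands for it.

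The tissue was the initial segment, the part of the epididymis nearest the testis, from adult male Sprague-Dawley rats. Efferent duct ligation (EDL) ties off the ducts that bring testicular fluid to the epididymis, and in each animal 1 side was ligated and the other had a sham operation. There were 4 groups of 4 arrays, sham tissue and tissue taken 6, 12 and 18 h after EDL, and a single sham group served every time. The rats carried no genetic change and were given no agent that the labels name, and the labels call the replicates biological without saying which arrays share an animal. Every comparison with sham therefore shares the same 4 arrays.

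Levels are log2 values per probe set, and a value under 5 was not told from background. A probe set was tested if it reached 5 in at least 4 of the 16 arrays, which 8344 genes did. Differences subtract the mean log2 levels of 4 arrays a group and carry limma's SE (±), a gene was called at a Benjamini-Hochberg adjusted p under 0.05, and levels of different genes are not compared because each probe set has its own brightness. In whole tissue, fewer cells of a type and less RNA per cell cannot be told apart. Markers of the labelled tissue were present, with all 13 measured genes of the initial segment and caput epithelium list tested and Adam7, a sperm-binding epididymal gene, at 14 or above in every array. Of these 13, 3 were called lower at 12 h and at 18 h: at 18 h Etv4 fell by 3.92, Etv5 fell by 4.37 and Ggt1 fell by 0.76. Of 4 tested sperm markers 3 were lower at 18 h, Odf1, Prm1 and Smcp, with means of 2.22, 4.36 and 3.31 at 18 h, against 8.51, 8.91 and 7.94 in sham. These means at 18 h were under 5, so the size of the falls is uncertain. The remaining marker, Odf2, averaged 6.58 at 18 h and 6.23 in sham and was not called (adjusted p = 0.326 by limma). Of 3 tested endothelial markers Kdr was higher at 18 h (0.95 ± 0.21, adjusted p = 0.00876), and that list summed on the linear scale to 585 to 937 at 18 h, against 389 to 582 in sham. The part of these markers in the values below was not tested. Of liver and plasma markers, 0 of 7 reached 5 in any array. The arrays divided by replicate number: limma called 34.6% of the tested genes between replicates 3 and 4 and replicates 1 and 2, with the group in the model. Each group holds 2 arrays on each side, so differences within each pair of replicates are given where they bear on a result. A bacterial control transcript, dap, was at 7.1 to 7.93 in replicates 3 and 4 of sham and 6 h and at 2.22 in all other arrays, so a difference of 12 or 18 h from sham or 6 h within replicates 3 and 4 also crosses array sets.

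The 3 promoters below belong to the genes that the results turn on. Serpinb1a was the gene called after ligation, Serpina3n had the largest difference from sham, and Serpinh1 was called when the divide between replicates was in the model. Each is the 250 bases before the transcription start, from RefSeq on GRCr8, on the gene's own strand. Capitals mark matches to 4 motifs searched on both strands, chosen with the values known: a STAT site (TTCNNNGAA), a PEA3-type ETS site (AGGAAG), an NF-kappa-B site and a heat shock element (GAANNTTC).
Serpinb1a, chr17:31799196-31799445, plus strand: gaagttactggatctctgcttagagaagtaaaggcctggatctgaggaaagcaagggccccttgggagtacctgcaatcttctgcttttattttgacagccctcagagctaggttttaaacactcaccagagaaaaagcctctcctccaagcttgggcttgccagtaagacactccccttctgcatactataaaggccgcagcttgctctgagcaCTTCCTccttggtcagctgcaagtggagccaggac
Serpina3n, chr6:129088142-129088391, plus strand: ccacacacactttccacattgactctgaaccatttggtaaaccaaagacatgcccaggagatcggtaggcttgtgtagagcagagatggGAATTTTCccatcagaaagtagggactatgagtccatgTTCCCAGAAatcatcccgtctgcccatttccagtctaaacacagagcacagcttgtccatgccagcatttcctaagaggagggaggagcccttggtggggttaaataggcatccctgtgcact
Serpinh1, chr1:163062977-163063226, minus strand: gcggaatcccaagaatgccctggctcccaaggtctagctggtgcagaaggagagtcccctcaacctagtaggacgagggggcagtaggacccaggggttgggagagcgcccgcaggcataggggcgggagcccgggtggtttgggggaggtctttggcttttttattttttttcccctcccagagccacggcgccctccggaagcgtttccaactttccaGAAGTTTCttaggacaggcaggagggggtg
The Serpinb1a window held 1 ETS match, from 35 to 30 bases before the start. The Serpina3n window held a STAT match, TTCCCAGAA, from 123 to 115 bases before the start, and a heat shock match further upstream, and the Serpinh1 window held a heat shock match from 30 to 23 bases before the start. No 2 of these matches overlapped. Of all 33469 promoter windows of the same length, 7.67% held the STAT motif, 29.5% the ETS motif, 1.3% the NF-kappa-B motif and 7.23% the heat shock element. Of the 12 tested genes 10 had a window, and among these the STAT motif was also found in Serpina11 and the ETS motif also in Serpina11, Serpinb6b and Serpinf1. A match describes letters and does not show binding.

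Of the 38 genes, 12 reached the minimum level and 26 did not. Of the 26, 25 stayed under 3 in every array, and the highest value among them was 3.03 (Serpina12). They included Serpina1 (alpha-1-antitrypsin), Serpinc1 (antithrombin), Serpina5 (protein C inhibitor), Serpine2 (protease nexin 1), Serpini1 (neuroserpin), and Spink1 and Spink4. The highest value of Serpine2 in any array was 2.83, and that of Spink1 was 2.4. No fold is given for these genes, and a transcript below the range of its probe set would look the same. The tested genes were 2 of 12 in clade A, 4 of 11 in clade B, 3 of 3 in clades F and G, 1 of 3 in clades H and I, 2 of 5 Spink genes, and 0 of 4 in clades C, D and E. Position went with detection in clade B. By the RefSeq gene table of GRCr8, 4 of 5 clade B genes on chromosome 17 reached the minimum (Serpinb1a, Serpinb6a, Serpinb6b and Serpinb9), against 0 of 6 on chromosome 13. Clade A had 2 of 11 on chromosome 6 (Serpina3n and Serpina11) and 0 of 1 on the X chromosome. The plot of ranges over the arrays shows the gap between the 2 sets of genes.

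**Figure D1:**
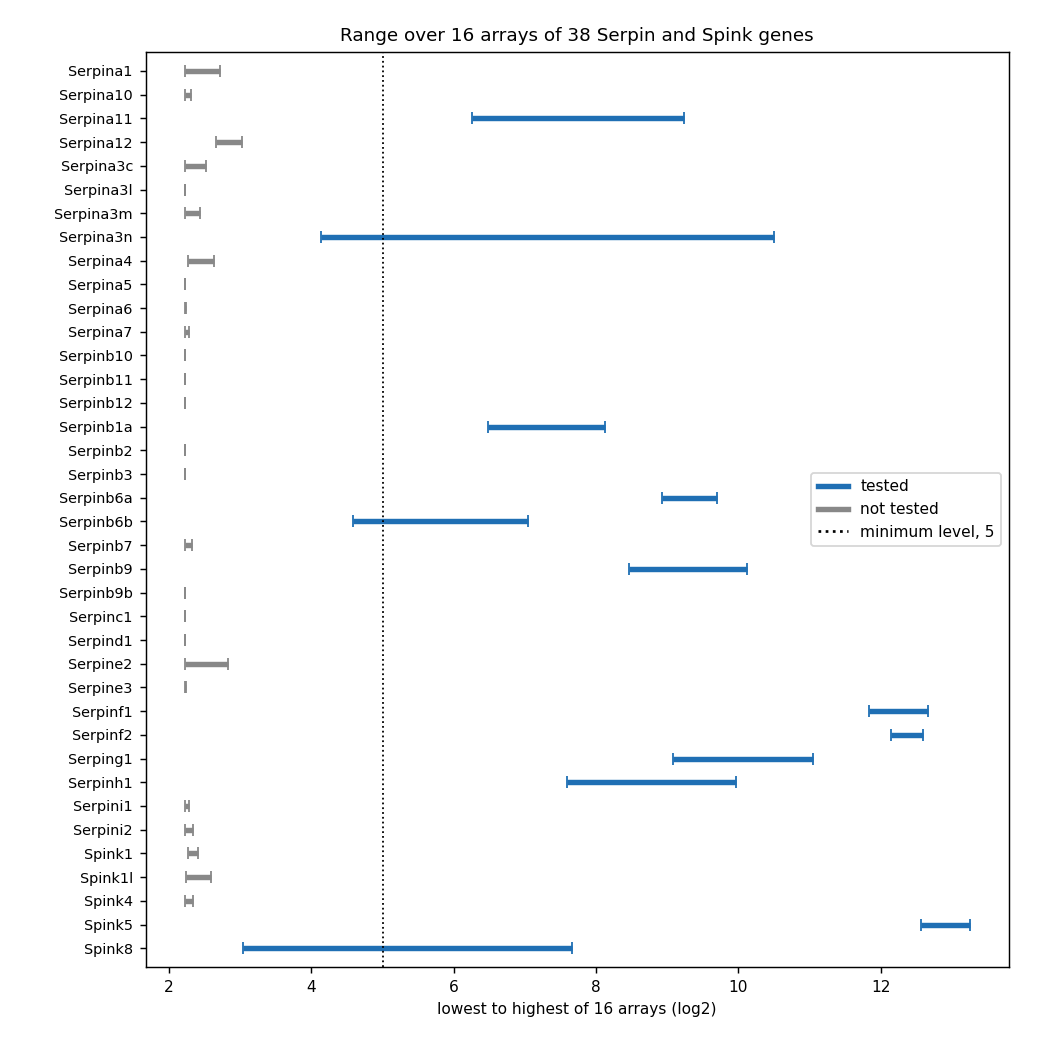
Lowest to highest level over 16 arrays (x axis, log2) for each of the 38 Serpin and Spink genes (y axis, grouped by clade), with the minimum level of 5 as a dotted line. The 12 tested genes reach 5 in at least 4 arrays, and the other 26 stay at or under 3.03.

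After ligation, 1 of the 12 tested genes was called against sham in the fit of 4 group means. Serpinb1a, which encodes an intracellular inhibitor of the neutrophil proteases elastase, cathepsin G and proteinase 3, rose by 18 h. The other 11 were not called at any time in that fit, which does not show that they were unchanged. Serpinh1 was called at 12 h when the divide between replicates was in the model. At 18 h the 95% intervals were -0.41 to 0.25 for Spink5, -0.43 to 0.38 for Serpinf1 and -0.23 to 0.24 for Serpinf2. The background is 0.36% of 8344 genes called at 6 h, 8.75% at 12 h and 11.1% at 18 h, so 0, 0 and 1 of 12 (8.33%) called by limma was near or under the share among all genes. At an unadjusted p under 0.05 the counts were 0, 2 and 4 of 12, beside 6.02%, 20.9% and 23.3% of all genes. The median difference of the 12 genes from sham was 0.00, 0.28 and 0.38 at 6, 12 and 18 h, against 0.02, 0.03 and 0.03 for all genes. Of the 12 differences 6, 11 and 9 were positive at 6, 12 and 18 h, beside 56.2%, 55.5% and 55.1% of all genes. At 18 h 2 of 12 (16.7%) had all 4 EDL arrays above all 4 sham arrays, beside 8.98% of all genes (5.99% were called higher), and these were Serpinb1a and Serpinb6a.

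**Figure D2:**
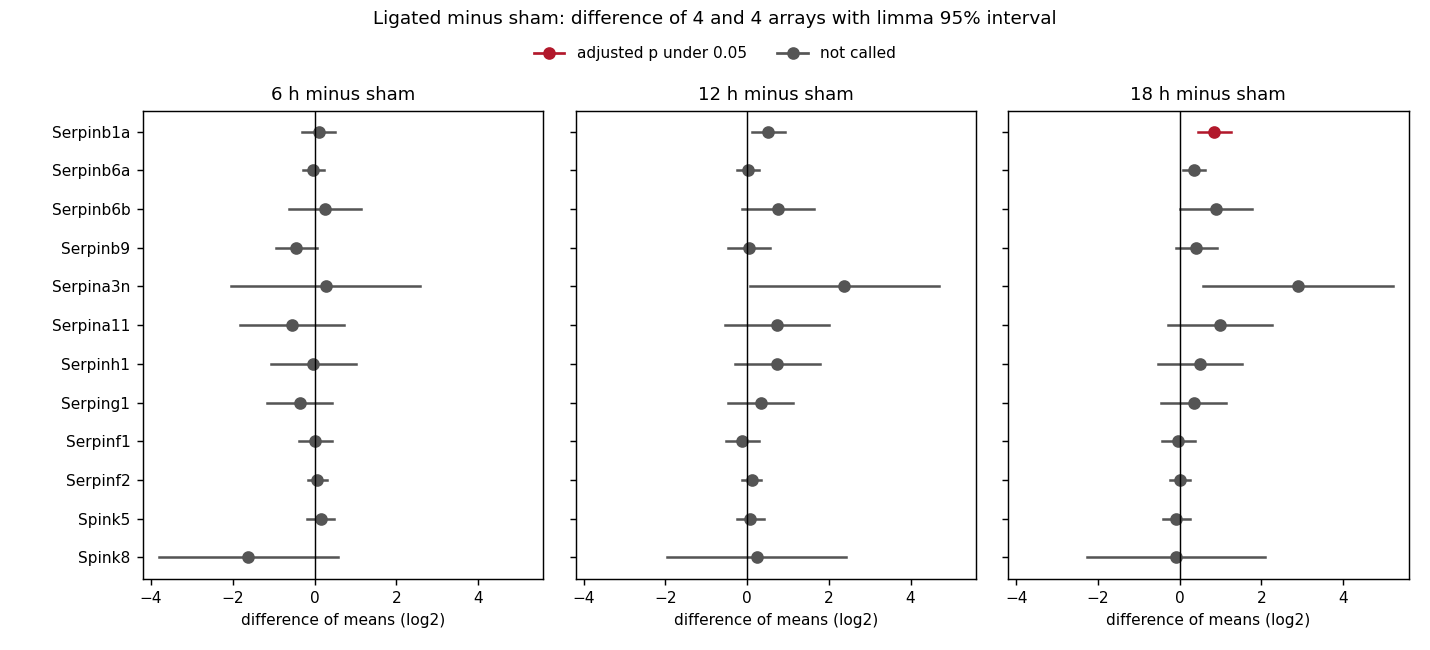
Difference of group means against sham (x axis, log2; n = 4 arrays in each group) with limma's 95% interval for the 12 tested genes at 6, 12 and 18 h, with the called value in red. Serpinb1a at 18 h is the called value, at 0.85, and the widest intervals are those of Serpina3n and Spink8.

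Clade B serpins act mainly inside cells, where they protect against proteases that leak from granules or lysosomes. Serpinb1a measured 6.67, 6.48, 6.72 and 6.96 in sham (replicates 1 to 4, here and below), 6.84, 6.72, 6.96 and 6.72 at 6 h, 6.96, 7.41, 7.04 and 7.48 at 12 h, and 7.61, 7.22, 8.13 and 7.26 at 18 h. All 4 arrays at 18 h lay above all 4 sham arrays, while at 12 h 1 array equalled the highest sham value at 2 decimals. At 18 h the mean was 7.55 ± 0.42, against 6.71 ± 0.20 in sham (SD, n = 4), a rise of 0.85 ± 0.19 or 1.8-fold (adjusted p = 0.00985 by limma). The difference was 0.84 within replicates 1 and 2 and 0.85 within replicates 3 and 4. With a term for the 3 array sets, in which replicates 1 and 2 alone link 18 h with sham, it was 0.84 ± 0.23 (adjusted p = 0.0345). At 12 h it was 0.52 ± 0.19 (adjusted p = 0.123), and at 6 h 0.11 ± 0.19 (adjusted p = 1). The call at 18 h was lost when the 2 groups were fitted alone (0.85 ± 0.21, adjusted p = 0.0575). Averaged with the gene's other probe set, which stayed under 5, the difference was 0.52 and was still called.

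Markers of neutrophils, cells rich in SERPINB1, are given beside this rise. Of the 7 measured, 1 was tested, and that was Lcn2, which was at 14.01 or above in every array. Camp and Cxcr2 were at the floor of 2.22 in all 16 arrays, and Csf3r and Np4 did not exceed 3.25 and 3.05. S100a8 and S100a9 exceeded 8 in 12 h EDL arrays alone, with S100a9 at 8.47 and 10.36 in replicates 1 and 2 at 12 h, against 4.61, 4.18, 3.11 and 3.26 at 18 h and 3.11 to 3.39 in sham. The neutrophil list summed on the linear scale to between 18400 and 20300 at 18 h, against 18700 to 21600 in sham. Lcn2 made up most of this sum, so the sum does not show whether neutrophils changed. The part of neutrophils in the values of Serpinb1a was not tested.

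Serpinb6a, which encodes an inhibitor of trypsin-like proteases and cathepsin G, measured 9.22, 9.08, 9.18 and 9.21 in sham, 9.24, 9.16, 9.24 and 8.93 at 6 h, 9.08, 8.98, 9.52 and 9.22 at 12 h, and 9.45, 9.70, 9.62 and 9.32 at 18 h. The 18 h arrays all lay above the sham arrays, by a small margin. The difference at 18 h was 0.35 ± 0.12 (adjusted p = 0.0973), with 0.42 and 0.28 in the 2 pairs of replicates. Serpinb6b, a close relative, measured 6.48, 5.20, 4.59 and 5.54 in sham and 6.14, 7.05, 5.95 and 6.20 at 18 h. These groups overlapped through sham replicate 1. The difference was 0.88 ± 0.41 at 18 h (adjusted p = 0.223) and 0.75 ± 0.41 at 12 h (adjusted p = 0.351).

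Serpinb9 encodes the inhibitor of granzyme B, a protease of cytotoxic lymphocytes. It measured 8.98, 9.40, 9.47 and 9.01 in sham, 8.65, 9.20, 8.46 and 8.75 at 6 h, 9.71, 9.42, 8.86 and 9.05 at 12 h, and 9.71, 10.12, 9.57 and 9.10 at 18 h. In this probe set every pair of groups overlapped, with the lowest mean at 6 h and the highest at 18 h. The difference from sham was -0.45 ± 0.23 at 6 h (adjusted p = 0.99) and 0.41 ± 0.23 at 18 h (adjusted p = 0.339). A further probe set of the gene gave -0.54 ± 0.16 at 6 h (adjusted p = 0.386) and 0.33 ± 0.16 at 18 h (adjusted p = 0.257), and in both probe sets the mean was lowest at 6 h and highest at 18 h. In the further probe set the 18 h arrays (9.55 to 9.69) lay above those at 12 h (8.90 to 9.38) and 6 h (8.49 to 8.97). No share of all genes without overlap is given for these times, and 18 h was not tested against 6 h. The difference of the further probe set between 18 h and 12 h was 0.43 ± 0.16 and was not called (adjusted p = 0.656 by limma). Gzmb, which encodes its target, averaged 6.00 at 18 h, against 4.74 in sham, a mean under 5, and its difference of 1.26 ± 0.52 was not called (adjusted p = 0.16). Of the 9 T and NK cell markers measured, 3 were tested and limma called 0 at 18 h (1 at an unadjusted p under 0.05), and the list summed on the linear scale to 204 to 318 at 18 h, against 183 to 242 in sham.

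**Figure D3:**
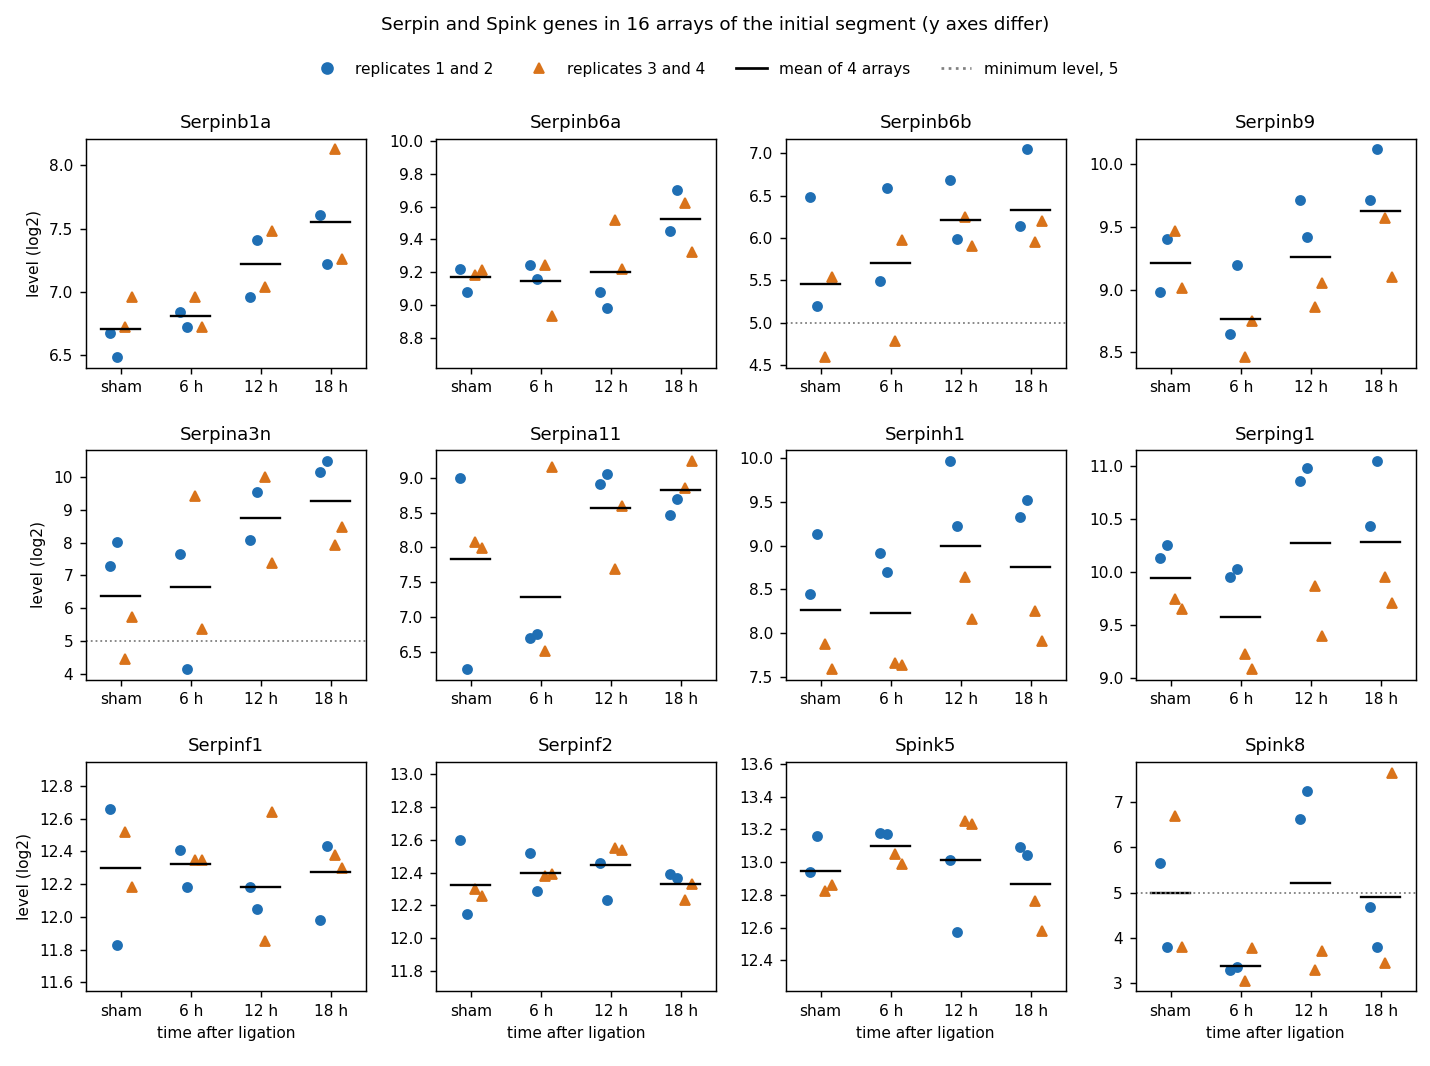
Levels (y axes, log2, differing between panels) of the 12 tested genes in each array by time after EDL (x axis), with replicates 1 and 2 as circles, replicates 3 and 4 as triangles, the group mean of 4 arrays as a bar and the minimum level as a dotted line. Serpinb1a at 18 h lies wholly above sham, Serpina3n spans 4.14 to 10.50, and Serpinh1 and Serping1 are lower in the triangles of each group.

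Clade A serpins are mostly secreted. Serpina3n belongs to the alpha-1-antichymotrypsin family, whose genes are acute phase genes in liver. It measured 7.28, 8.02, 4.46 and 5.74 in sham, 7.65, 4.14, 9.41 and 5.38 at 6 h, 8.08, 9.55, 9.99 and 7.39 at 12 h, and 10.16, 10.50, 7.93 and 8.48 at 18 h. Of the 18 h arrays 3 of 4 lay above every sham array, and replicate 3 fell just short of sham replicate 2. The mean was 9.27 ± 1.25 at 18 h and 6.38 ± 1.59 in sham (SD, n = 4). The difference was 2.89 ± 1.08 or 7.42-fold at 18 h (adjusted p = 0.116; 95% interval 0.57 to 5.21), with 2.68 within replicates 1 and 2 and 3.10 within replicates 3 and 4. At 12 h it was 2.38 ± 1.08 (adjusted p = 0.241), with 1.17 and 3.59 in the pairs. At 6 h it was 0.27 ± 1.08, with -1.75 and 2.29 in the pairs, so the 2 pairs went opposite ways. The difference at 18 h was the largest of the 12 genes. Its unadjusted p by limma was 0.018, and it was not called after adjustment over all tested probe sets. No alternative setting tried brought it to a call, with adjusted p between 0.083 and 0.308. Markers of macrophages, of which 8 of 10 were tested, had 1 called higher at 18 h (Cd14, a lipopolysaccharide receptor gene, 1.92 ± 0.46, adjusted p = 0.0158), whose sham mean of 4.90 was under 5, so the size of its rise is uncertain. That list summed on the linear scale to 680 to 1290 at 18 h, against 618 to 880 in sham, with Itgam at the floor in all arrays, and its part in the values of Serpina3n was not tested.

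Serpina11, a clade A gene of little known function, measured 9.0, 6.26, 8.08 and 7.99 in sham, 6.70, 6.77, 6.52 and 9.15 at 6 h, 8.91, 9.05, 7.69 and 8.59 at 12 h, and 8.47, 8.70, 8.85 and 9.24 at 18 h. The SD was 1.14 in sham and 1.25 at 6 h, against 0.61 at 12 h and 0.32 at 18 h. The difference from sham was 0.98 ± 0.60 at 18 h (adjusted p = 0.375), or 0.46 ± 0.55 without sham replicate 2, and 12 h exceeded 6 h by 1.28 ± 0.60 (adjusted p = 0.283). All times overlapped sham.

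Serpinh1 encodes Hsp47, a chaperone that binds procollagen in the endoplasmic reticulum and inhibits no protease. It measured 8.45, 9.13, 7.88 and 7.59 in sham, 8.92, 8.70, 7.66 and 7.64 at 6 h, 9.97, 9.23, 8.64 and 8.16 at 12 h, and 9.33, 9.52, 8.25 and 7.91 at 18 h. In each group replicates 3 and 4 were lower than replicates 1 and 2. Over all arrays replicates 3 and 4 averaged 7.97 and replicates 1 and 2 averaged 9.15, a difference of -1.19 ± 0.13 (adjusted p = 2.08e-05, with the group in the model). The difference between 12 h and sham was 0.74 ± 0.48 and was not called (adjusted p = 0.465), with 0.81 within replicates 1 and 2 and 0.66 within replicates 3 and 4. Without 12 h replicate 1 it was 0.42 ± 0.48. With a term that sets replicates 1 and 2 apart from 3 and 4 it was 0.74 ± 0.18 and was called (adjusted p = 0.016). With a term for 3 array sets it was 0.82 ± 0.23 and was called as well (adjusted p = 0.0424). Against 6 h, 12 h was higher by 0.77 ± 0.18 with the term for replicates 1 and 2 against 3 and 4 (adjusted p = 0.0191). With the term for 3 array sets it was 0.85 ± 0.23 (adjusted p = 0.0472), and with neither term the adjusted p was 0.461. At 18 h the difference from sham was 0.50 ± 0.48 (adjusted p = 0.619). The adjusted p was 0.0811 with the term for replicates 1 and 2 against 3 and 4, and 0.134 with that for 3 array sets.

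Fibroblast genes, including the collagens that Hsp47 folds, moved with the same divide. Of 10 tested fibroblast markers, 9 were called lower in replicates 3 and 4 and 0 higher, with a median difference of -1.39. Between 12 h and sham limma called 0 of the 10, with 0 at an unadjusted p under 0.05, a median of 0.46, and 0.53 and 0.31 in the pairs of replicates. It summed on the linear scale to 13200 to 31300 at 12 h, against 9670 to 29400 in sham, with Fap at or near the floor in all arrays. Col1a1, a chain of type I collagen, measured 13.11, 12.89, 11.28 and 11.47 at 12 h, against 11.76, 13.05, 9.98 and 9.77 in sham (difference 1.05 ± 1.02, adjusted p = 0.67). The part of the number of fibroblasts in the values of Serpinh1 was not tested.

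Serping1 encodes C1 inhibitor, which stops the complement proteases C1r and C1s as well as plasma kallikrein. It measured 10.13, 10.25, 9.74 and 9.65 in sham, 9.95, 10.03, 9.22 and 9.08 at 6 h, 10.86, 10.98, 9.87 and 9.39 at 12 h, and 10.43, 11.05, 9.95 and 9.71 at 18 h. Replicates 3 and 4 were lower in each group, by -0.88 ± 0.12 over all arrays (adjusted p = 0.000111). The difference from sham was 0.34 ± 0.37 at 12 h (adjusted p = 0.722), with 0.73 within replicates 1 and 2 and -0.06 within replicates 3 and 4, so the pairs did not go the same way. Between 12 h and 6 h it was 0.71 ± 0.37 (adjusted p = 0.355), with 0.93 and 0.48 in the pairs. With the term for replicates 1 and 2 against 3 and 4 it was 0.71 ± 0.17 (adjusted p = 0.0208). The genes of its targets had the same divide. C1s measured 11.57, 11.61, 10.50 and 10.11 at 12 h, against 10.79, 10.88, 10.44 and 10.52 in sham, and C1r measured 11.61, 11.65, 10.36 and 10.37 at 12 h, against 10.74, 10.84, 10.26 and 10.29 in sham. Both were higher at 12 h in replicates 1 and 2. In replicates 3 and 4 C1r was slightly higher, while C1s was at 10.50, within the sham values, and at 10.11, below them.

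**Figure D4:**
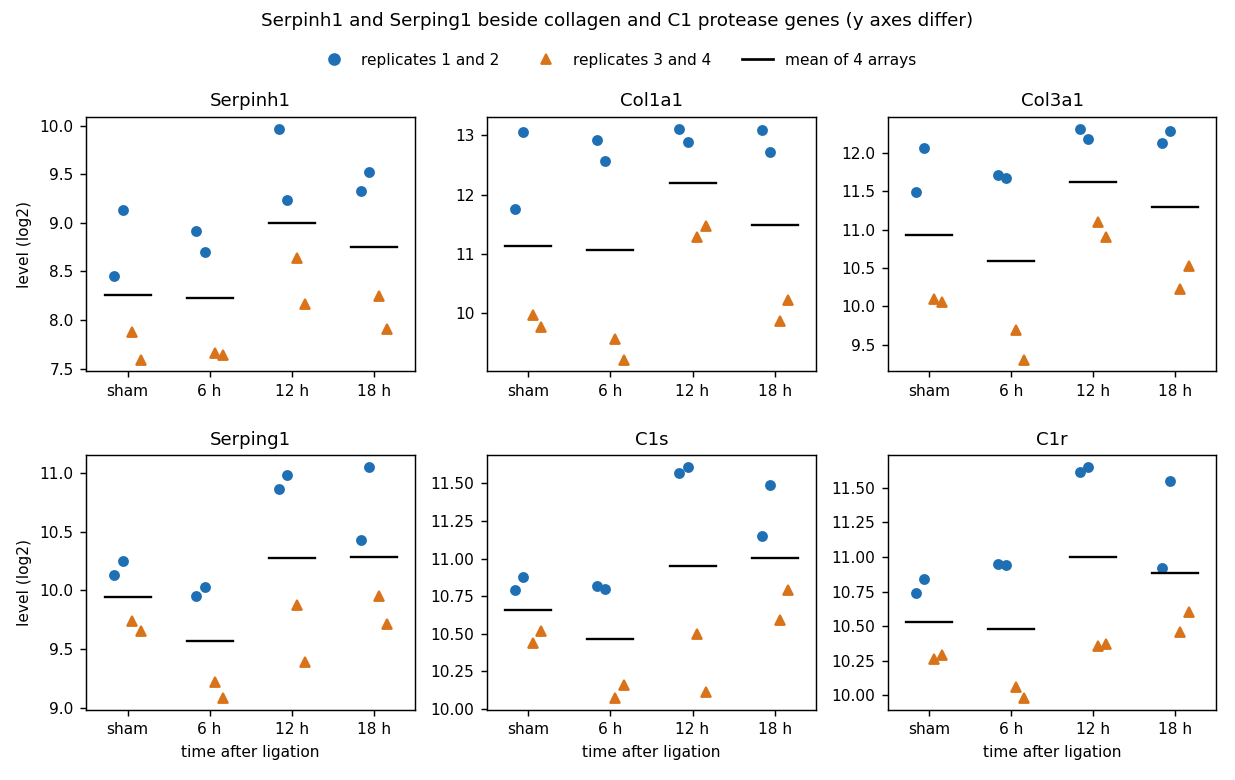
Levels (y axes, log2, differing between panels) by time after EDL (x axis) of Serpinh1 beside the collagen genes Col1a1 and Col3a1, and of Serping1 beside the C1 protease genes C1s and C1r, with replicates 1 and 2 as circles, replicates 3 and 4 as triangles and group means as bars. Replicates 3 and 4 of Serpinh1 and Serping1 lie below replicates 1 and 2 in every group.

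Serpinf1, Serpinf2 and Spink5 had means near those of sham at all 3 times, by the probe set that stands for each. Serpinf1 encodes pigment epithelium-derived factor, a secreted serpin with no known protease target that restrains vessel growth. It averaged 12.30 ± 0.37 in sham, 12.32 ± 0.10 at 6 h, 12.18 ± 0.33 at 12 h and 12.27 ± 0.20 at 18 h (SD, n = 4). At 18 h its difference from sham was -0.03 ± 0.19, with a 95% interval from -0.43 to 0.38. Serpinf1 was not lower in replicates 3 and 4 (0.11 ± 0.13, adjusted p = 0.556), unlike Serpinh1 and Serping1. That contrast between the genes was not itself tested.

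Serpinf2 encodes alpha-2-antiplasmin, the main inhibitor of plasmin and is on chromosome 10, as is Serpinf1. It averaged 12.33 ± 0.19 in sham, 12.40 ± 0.10 at 6 h, 12.45 ± 0.15 at 12 h and 12.33 ± 0.07 at 18 h. Its difference from sham at 18 h was 0.00 ± 0.11 (95% interval -0.23 to 0.24), and it was 0.12 ± 0.11 at 12 h (adjusted p = 0.654). Plasma and liver markers were at background in these arrays, with Alb, Apoa1 and Ahsg at or near the floor.

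Spink5 encodes LEKTI, a multidomain inhibitor known in skin, where it restrains kallikreins. It measured 12.94, 13.16, 12.82 and 12.86 in sham, 13.18, 13.17, 13.05 and 12.99 at 6 h, 13.01, 12.57, 13.25 and 13.23 at 12 h, and 13.09, 13.04, 12.76 and 12.58 at 18 h. The groups overlapped at every time. The difference from sham was 0.15 ± 0.15, 0.07 ± 0.15 and -0.08 ± 0.15 at 6, 12 and 18 h. Its other probe sets gave -0.06 ± 0.16 (adjusted p = 0.896) and -0.39 ± 0.28 (adjusted p = 0.461) at 18 h. In the second of these, 18 h replicates 3 and 4 were the lowest of the 16 arrays, at 12.09 and 11.65. Klk1 and Klk8, kallikrein genes, did not exceed 2.36 in any array. Klk5 and Klk7, further kallikrein genes, had no probe set named for them alone. The values of Klk1 and Klk8 therefore do not show whether targets of LEKTI were present.

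Spink8, a Kazal inhibitor gene, was near the minimum level. It measured 5.66, 3.80, 6.69 and 3.80 in sham, 3.29, 3.36, 3.04 and 3.77 at 6 h, 6.63, 7.24, 3.29 and 3.71 at 12 h, and 4.67, 3.80, 3.44 and 7.66 at 18 h. It reached 5 in 2 sham arrays, 0 at 6 h, 2 at 12 h and 1 at 18 h. The 6 h arrays lay below the sham arrays, beside 1.75% of all genes, but both means were under 5 (3.37 at 6 h and 4.98 in sham), so no change is measured. The difference between 12 h and sham was 2.21 within replicates 1 and 2 and -1.74 within replicates 3 and 4.

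Between consecutive times, limma called 0 of the 12 genes. Between 12 h and 6 h the background was 4.73% of all genes, and 2 of 12 had an unadjusted p under 0.05 (Serpinb1a and Serpina11, beside 19.4% of all genes). Of the differences 10 of 12 were positive between 12 h and 6 h, beside 50.6% of all genes, and 8 of 12 between 18 h and 12 h, beside 50.8%. Between 18 h and 12 h the background of calls was 0% of all genes. At an unadjusted p under 0.05 it was 6.74%, beside 1 of 12 (Serpinb6a, 0.32 ± 0.12, adjusted p = 0.662). Serpinb1a stood at 0.41 ± 0.19 between 12 h and 6 h (adjusted p = 0.271) and at 0.33 ± 0.19 between 18 h and 12 h (adjusted p = 0.825).

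Of 54 tested genes in 6 lists of proteases, their partners and other inhibitors, 4 (7.41%) were called at 18 h, beside 11.1% of all genes. At 18 h, Anxa2 rose by 1.00 ± 0.25 (adjusted p = 0.0227), the 1 call among 6 tested plasminogen activation genes, and it encodes a membrane protein that binds plasminogen. Anxa2 measured 10.70, 11.03, 10.81 and 9.53 at 18 h, against 9.49, 9.75, 9.44 and 9.40 in sham, so replicate 4 lay within the sham range. Plat, which encodes tissue plasminogen activator, stood at 1.25 ± 0.42 (adjusted p = 0.0763). Among 8 coagulation genes Procr, the protein C receptor gene, rose by 1.18 ± 0.25 (adjusted p = 0.00859). Among 6 complement genes Cfi, which encodes the protease factor I, rose by 1.54 ± 0.25 (adjusted p = 0.00112), and it had risen by 1.16 ± 0.25 at 12 h (adjusted p = 0.0104). Cfi measured 8.94, 9.18, 9.45 and 9.26 at 18 h, against 7.94, 7.07, 7.92 and 7.76 in sham, with no overlap. Of 8 serine protease genes limma called 0 at 18 h (2 at an unadjusted p under 0.05) and 1 at 12 h, the membrane protease gene Prss8 (0.46 ± 0.13, adjusted p = 0.0406). Of 14 other serine protease inhibitors 1 rose at 18 h, Eppin, which encodes a sperm-coating inhibitor with a Kunitz and a WAP domain (0.72 ± 0.21, adjusted p = 0.0425), with sham replicate 1, at 12.05, inside the 18 h range. Of 12 cathepsin and legumain genes 0 were called at any time by limma, with 1 at an unadjusted p under 0.05 at 18 h (Ctsl, 0.33 ± 0.12, adjusted p = 0.111). In these 6 lists 0 genes were called lower against sham at any time and 0 were called at 6 h, when 3 had an unadjusted p under 0.05.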

How the data were processed

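Total RNA from 16 tissue samples was hybridised to 1-colour Affymetrix rat arrays. The deposited values are log2 levels made by the authors with GCRMA, per the submitters' processing notes, and no version is given in the sources used here. They were not normalized again. Probe sets were named from the platform annotation, in which 20826 had 1 symbol, 436 several and 9780 none. Of 31042 probe sets other than controls, 13410 reached 5 in at least 4 arrays and were tested in limma 3.58.1 (R 4.3.3) with 4 group means over all arrays, lmFit, eBayes and Benjamini-Hochberg adjustment over all of them. The number of arrays limits the precision. In the main fit the p-values set each difference against the spread of arrays within groups, which includes the divide between replicates. The members, gene lists and motifs were chosen with earlier results of these data known. All tested members are named, and from each of the 6 protease and inhibitor lists the genes called against sham (up to 4, by size), or the one with the smallest p where none was, while Plat, Gzmb, Klk1, Klk8, Col1a1, C1s, C1r and the cell type markers were named after their values were seen. Deviations of same-numbered arrays from their group means correlated between 0.007 and 0.556 over 24 pairs, with a median of 0.414. The median was 0.385 for other numbers on the same side of the divide between replicates, and -0.388 across it. These values do not settle whether the numbers pair the samples, and the labels do not say, so no pairing was used in the main fit. The 3 array sets were replicates 1 and 2, replicates 3 and 4 of sham and 6 h, and replicates 3 and 4 of 12 and 18 h. The bacterial control transcript dap averaged 7.1 to 7.93 in the second set and 2.22 in the others. Alternatives covered the minimum level, scaling, prior, probe set choice, blocks, subsets of arrays and leaving out each array.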

Additional observations from a re-analysis of the deposited data

Results flagged for a closer look

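Serpina11 at 6 h had 1 array far from the other 3: replicate 4 measured 9.15, while the others lay between 6.52 and 6.77. The gap was 0.905 of the group's range, above Dixon's 95% critical value for 4 arrays. This was 1 of 48 groups checked, and chance alone gives about 1 in 20.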

How the results depend on the processing

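Of 1250 values of single genes under the alternatives, 1237 stayed on the same side of the threshold, 3 lost a call and 10 gained one. The sign was opposite to the reported one in 75 values of 26 comparisons of a gene, and 0 of these were called under either fit. The numbers of called genes at 6 h against sham, and at 18 h against 12 h, were 0 under every alternative run. At 18 h against sham the count was 1, Serpinb1a, and it was 0 with the 2 groups fitted alone, with replicates 1 and 2 alone and with replicates 3 and 4 alone, fits with fewer arrays. Leaving out each array in turn gave 1 to 1 at 18 h against sham, and 0 to 0 in the other comparisons. With the replicate block, the block of replicates 1 and 2 against 3 and 4 or the block of 3 array sets, the count at 12 h against sham was 1 (Serpinh1), against 0 without them. Under the same blocks the count at 12 h against 6 h was 2 (Serping1 and Serpinh1), against 0, and with replicates 1 and 2 alone it was 1 (Spink8). In the block of 3 sets, replicates 1 and 2 alone link 12 or 18 h with sham or 6 h, while arrays of the other sets also enter the estimate. Of 16 arrays, 11 correlated best, among arrays of other groups, with an array of their own number, which does not settle whether the numbers pair the samples. Across all tested probe sets the replicate block called 1709 at 12 h against sham, and the fit without it called 1054. Values near 5 limit what can be said of Spink8 and of the 26 untested genes.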
